A study of Mus musculus with 4 samples.

Results

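Liver transcripts of ClockΔ19 mice were compared between CT22 and CT28, 6 h apart, in 1 pooled library per time. The comparison covered 9220 of 24105 genes with a symbol, those with a mean of at least 100 reads over the 4 libraries of the series (CT22, CT28, CT34 and CT40). A gene can pass this minimum through 1 library alone, also the one in which it is high. Both groups were C57/BL6 mice that carried tetO::Clock-HA and Scg2:tTA on the Clock-delta-19 background. All of them drank doxycycline at 30 ug/ml from 3 days before constant darkness, after entrainment to 12 h of light and 12 h of dark. Each library held polyA RNA pooled from 3 animals, and without a second library at either time the differences have no replicate check. Wild-type livers were not analysed here, and the labels used here state neither sex nor age. The Scg2 promoter drives tTA in brain, and doxycycline keeps tTA from switching on the Clock-HA transgene. The groups are therefore mutant livers at different times, without a control genotype.

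CLOCK and BMAL1, the latter encoded by Arntl, form a transcription factor pair that binds E-boxes and drives the Per, Cry and Nr1d genes. PER and CRY proteins repress the pair, while REV-ERB (Nr1d1, Nr1d2) and ROR proteins compete on ROR elements and so set the level of Arntl, Npas2 and Nfil3. ClockΔ19 lacks an exon of the activation domain, and the protein still pairs with BMAL1 but drives transcription poorly. NPAS2 is a paralogue of CLOCK that can take its place. In liver, many rhythms also follow feeding, glucocorticoids, growth hormone and body temperature, which reach the organ from outside. Counted from subjective dawn, CT22 would be late subjective night and CT28 the early part of the next subjective day; the labels do not define the count, and the phase of these mutants was not measured.

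The labelled allele was checked first. In Clock (mm9 chromosome 5, 76641202 to 76733573), reads that skip exon 19 (153 bases, 76660421 to 76660573) numbered 28 at CT22 and 31 at CT28. Reads joining exon 19 to a neighbour numbered 0 at CT22, and 1 on each side at CT28. Exon 19 itself held 16 reads at CT22 and 12 at CT28, against 86 and 81 in exon 18 (90 bases) and 109 and 119 in exon 20 (195 bases). Clock itself had 1382 normalised reads at CT22 and 1315 at CT28, 1.05-fold lower (95% counting interval 0.973 to 1.13). Normalised reads are reads scaled by TMM, a library factor taken from the bulk of genes, and every interval covers counting error only. The 17 hepatocyte markers summed to 3398000 normalised reads at CT22 and 3687000 at CT28. Of them, 0 differed by 2-fold, and their median log2 ratio of CT28 over CT22 was -0.03. That ratio compares the libraries with each other and is not a check of the tissue.

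The libraries differed in several respects that touch every result, with CT22 at the end of the range and CT28 not always level with the later ones. Gene reads came to 17428450 at CT22 and 19749857 at CT28. For every 100 gene reads, the CT22 library held 17.5 mitochondrial reads and the CT28 library 9.84, with 6.51 and 6.27 in the later ones. Read density in the 5' part of transcripts over that in the 3' part had a median log2 of 0.28, 0.50, 0.72 and 0.82 in time order (3648 genes). It rose with each library, so CT28 also lay under the later ones. Of the variance of the log2 ratio of CT28 over CT22, 24.4% followed a smooth trend in GC content and length of the transcript. The median log2 ratio went from -0.21 in the lowest of 4 bins of GC content to 0.21 in the highest. It went from -0.14 in the shortest of 4 bins of length to 0.14 in the longest. Ratios are therefore given again for the 3' part of the transcript alone and with that trend removed. The part that coverage and base composition play in single results was not tested.

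At CT28, 135 genes were at least 2-fold higher than at CT22 (1.46% of those tested) and 133 were at least 2-fold lower (1.44%). These are the shares to set beside the 2-fold counts of the lists below. Lists and members were chosen with earlier results of these data known, so the list counts describe and do not test. The median log2 ratio of all genes was 0.04, with an interquartile range of -0.25 to 0.32, and 53.7% of genes were higher by any amount. A smaller limit of 1.5-fold was passed upward by 9.72% and downward by 7.41% of genes. Differences of 4-fold or more were found in 10 genes higher and 7 lower. Of the genes 2-fold apart, 50.4% were higher; scaling by total gene reads gave 87 higher and 195 lower (30.9% higher), and removing the GC and length trend gave 116 and 72 (61.7%). Scaling by total reads moved the median log2 ratio of all genes by -0.11, which turned 8 list medians of under 0.11 from above 0 to below it, among them those of cholesterol synthesis, growth hormone signalling, endoplasmic reticulum chaperones and the immediate early factors. Just inside the limit lay Marco (2.001-fold higher) and Vmp1 (a ratio of 0.4996), and just outside it Scd1 (1.999-fold higher) and Cyp4a12b (0.5014).

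**Figure D1:**
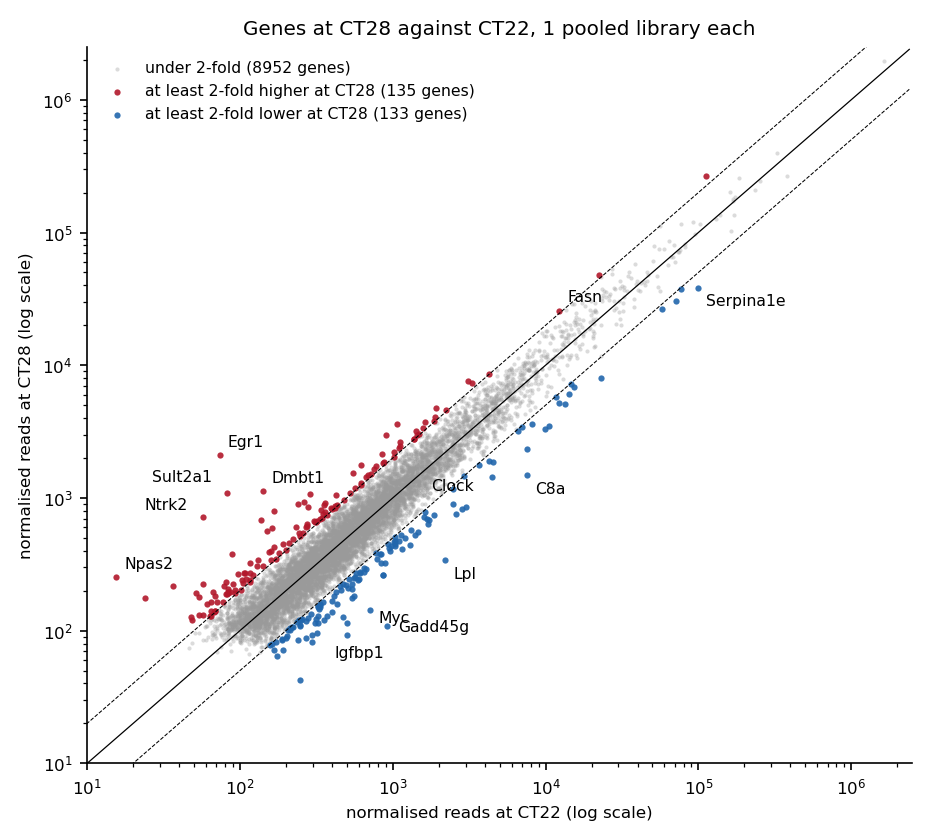
Normalised reads of 9220 genes at CT22 (x axis) and CT28 (y axis), both on log scales, 1 point per gene; the solid line marks equal levels and the dashed lines 2-fold. The 135 genes higher at CT28 are red and the 133 lower are blue, with Egr1 (73.6 and 2100 normalised reads) and Gadd45g (923 and 108) among the farthest from the line.

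Egr1, a zinc finger factor induced within minutes by many stimuli, was the gene furthest above its CT22 level. In time order its normalised reads were 73.6, 2100, 662 and 1094. The ratio of CT28 over CT22 was 28.5 (interval 22.5 to 36.7), 30.8 in the 3' part and 24.4 with the trend removed. CT22 was thus the low library and CT28 the high one. Intron reads of Egr1 (mm9 chromosome 18, 35020861 to 35024638), which stand for unspliced RNA, numbered 1 and 26.

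Most other immediate early genes were within 2-fold. Fos was under the read minimum, with 19.7 and 32.5 normalised reads, and Jun had 256 and 234. Junb had 187 and 198 and Dusp1, a MAP kinase phosphatase, 1550 and 1470. Of 14 measured immediate early and C/EBP factors, 3 were 2-fold higher (1.46% of all genes) and 1 lower (Myc). The 3 were Egr1, Cebpb and Ier2, the last 1.98-fold with the trend removed. The list's median log2 ratio was 0.03. Cebpb, a leucine zipper factor of liver regeneration and gluconeogenesis, had 137, 680, 1177 and 1207 normalised reads from CT22 to CT40. It was 4.97-fold higher at CT28 (4.12 to 6.04), but 20.7% of its length is shared with Tmem189, and the libraries do not mark strand, so overlapping genes cannot be told apart.

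The next 4 genes by ratio were also low at CT22. Npas2 (mm9 chromosome 1, 39251117 to 39420085) had 15.6, 254, 658 and 196 normalised reads in the same order. It was 16.3-fold higher at CT28 (9.72 to 29.6), and its intron reads went from 52 to 435. Sult2a1, a sulfotransferase of steroids and bile acids, had 81.9, 1098, 753 and 24.0 (13.4-fold, 10.7 to 17.1). It was high in the middle libraries and low at both ends of the series.

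Ntrk2, the receptor of the neurotrophin BDNF, had 57.0 normalised reads at CT22 and 723 at CT28 (12.7-fold, 9.63 to 17.0), then 120 and 403. Dmbt1, a secreted scavenger receptor of epithelia, had 141 and 1131 (8.02-fold, 6.71 to 9.66), then 77.8 and 723. Both alternated from library to library, high at CT28 and CT40. Moxd1, a monooxygenase-like gene under the read minimum, alternated in the same order with 21.8, 190, 9.21 and 45.0 normalised reads.

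Among genes lower at CT28, Gadd45g, a stress-induced inhibitor of cell-cycle kinases, was furthest from its CT22 level. It had 923 normalised reads at CT22 and 108 at CT28, and then 141 and 211. It was 8.52-fold lower at CT28 (6.98 to 10.5), 7.79-fold in the 3' part, and its intron reads went from 187 to 15. CT22 alone was high for this gene. Myc, which drives growth and proliferation, had 708, 143, 108 and 256 (4.96-fold lower, 4.14 to 5.97), with 113 intron reads at CT22 and 11 at CT28.

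These belong to a list of cell-cycle gates and growth arrest genes, of which 4 of 12 measured were 2-fold lower, against 1.44% of all genes. None of the 12 was 2-fold higher. The other two were Plk3, a stress-responsive kinase, with 1454 and 555 normalised reads (2.62-fold lower, 2.37 to 2.89), and Ccnd1, the G1 cyclin D1, with 1623 and 784. Ccnd1 shares 21.6% of its length with LTO1. The list's median log2 ratio was -0.64 (all genes 0.04), and -0.46 with the trend removed, where 4 members were again 2-fold lower. The kinase inhibitors Cdkn1a (log2 -0.92) and Cdkn1b (-0.73) were lower by less than 2-fold. The list mixes genes that promote division (Myc, Ccnd1) with genes that halt it (Gadd45g, Cdkn1a).

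Lpl, Igfbp1 and C8a were lowest at CT28. Lpl, the lipase that frees fatty acids from triglyceride-rich particles, had 2208, 341, 648 and 1108 normalised reads from CT22 to CT40 (6.48-fold lower at CT28, 5.78 to 7.28). Igfbp1, an insulin-suppressed secreted protein that binds IGF, had 502, 92.5, 943 and 1355 (5.42-fold lower, 4.34 to 6.84). C8a, a subunit of the complement attack complex, had 7516, 1491, 4898 and 6250 (5.04-fold lower, 4.77 to 5.33). All 3 were higher again at CT34 and at CT40. Intron reads of Igfbp1 numbered 67 at CT22 and 46 at CT28, nearer to each other than its exon reads.

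Other genes among the 15 with the widest ratio in each direction spanned several functions. Depp1, a FoxO target linked to autophagy, had 166, 803, 1427 and 3277 normalised reads from CT22 to CT40 (4.84-fold higher at CT28, 4.08 to 5.77), with each library above the one before. Celsr1, a planar polarity cadherin, had 242 and 896 (3.71-fold higher), and Loxl4, a lysyl oxidase of the matrix, had 51.8 and 191 (3.69-fold). Dpy19l3, a C-mannosyltransferase, had 163 and 590 (3.62-fold). Slc13a2, a citrate and dicarboxylate carrier, was 3.97-fold higher, but shares 26.2% of its length with an antisense gene.

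On the lower side, Enho, which encodes the secreted peptide adropin, had 357, 121, 367 and 379 normalised reads and was low in the CT28 library alone. Clec2h, a lectin-like receptor gene, had 246 and 42.3 (5.80-fold lower, 4.18 to 8.23). Serpina4-ps1, a serpin pseudogene, had 4491 and 1445 (3.11-fold lower), and Ifrd1, a transcriptional coregulator, had 271 and 88.6 (3.05-fold lower). Ppp1r35, Tceal8 and Cabyr were 3.58-, 3.37- and 3.17-fold lower. Taf5, a subunit of TFIID, was 3.08-fold lower over the whole transcript and 3.17-fold in the 3' part, but had a ratio of 0.995 in the 5' part, on 52 and 59 reads.

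**Figure D2:**
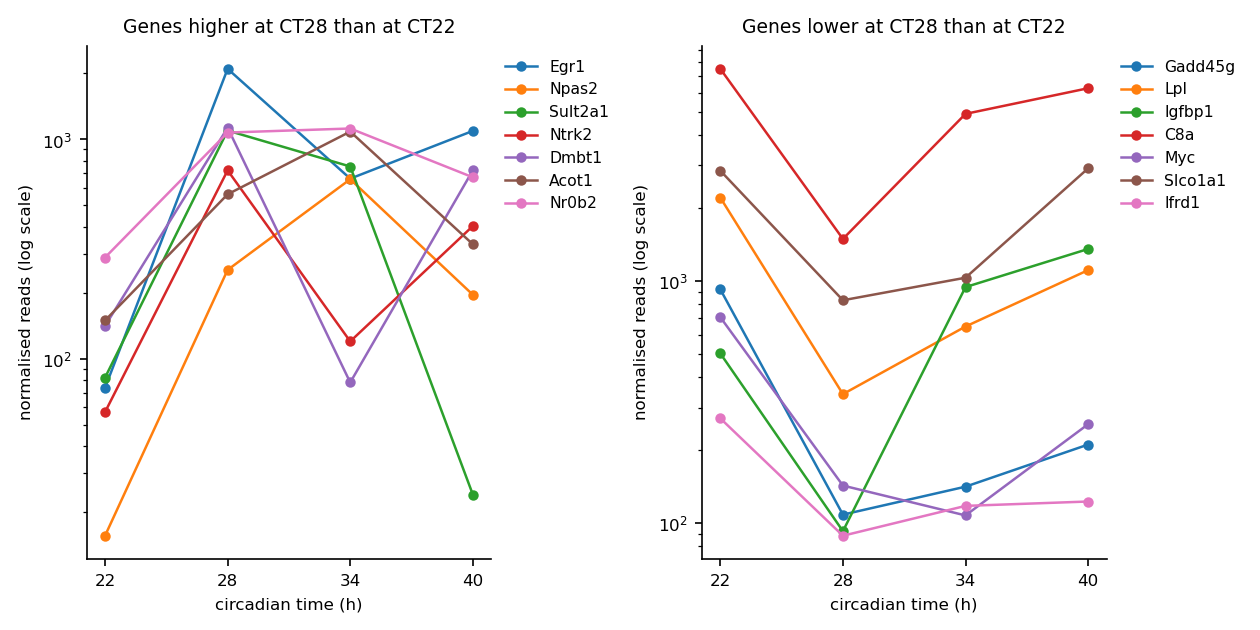
Normalised reads (log scale) of 7 genes higher and 7 genes lower at CT28 than at CT22, drawn from the 15 with the widest ratio in each direction, at CT22, CT28, CT34 and CT40 (x axis, h), 1 pooled library per point. Ntrk2 and Dmbt1 are high in alternate libraries, Npas2 is highest at CT34 with 658 reads, and Igfbp1 is lowest at 92.5 reads at CT28.

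Within the core clock, Npas2 was the only one of 19 measured genes that differed by 2-fold over the whole transcript. Arntl also passed that limit in the 3' part (2.13-fold) and with the trend removed (2.02-fold), Nr1d2 in the 3' part (2.02-fold lower) and Per1 with the trend removed (2.06-fold lower). Arntl came next with 415, 825, 1003 and 797 normalised reads in time order, a ratio of 1.99 (1.76 to 2.25). Nfil3, a repressor of D-box genes, went from 455 to 822 (1.81-fold, 1.61 to 2.03). Arntl, Nfil3 (1040 at CT34) and Npas2 were all highest at CT34.

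The repressors divided. Cry1 had 311 normalised reads at CT22 and 504 at CT28 (1.62-fold higher, 1.40 to 1.88), and Cry2 had 299 and 523 (1.75-fold, 1.51 to 2.03). Per1 had 626 and 388 (1.61-fold lower, 1.42 to 1.84; 1.19-fold in the 3' part). Per2 had 1109 and 1338 (1.21-fold higher; a ratio of 0.966 with the trend removed), and Per3 had 312 and 272 (1.15-fold lower, 0.972 to 1.36). The Cry genes were thus higher and Per1 lower. Per2 changed side with the trend removed, and the interval of Per3 spans equality.

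Of the ROR-element repressors, Nr1d2 had 352 and 201 normalised reads (1.75-fold lower, 1.47 to 2.09). Nr1d1 had 443, 408, 429 and 1907 from CT22 to CT40, and its ratio of CT28 over CT22 had an interval that spans equality (1.09-fold lower, 0.947 to 1.25). Bhlhe40, an E-box repressor, went from 1695 to 2861 (1.69-fold higher, 1.59 to 1.79). Dbp, the D-box activator, was under the read minimum with 96.4 and 55.1 normalised reads.

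Genes known as ROR-element targets were mostly higher at CT28: 5 of 6 were, against 53.7% of all genes. The exception was Clock. The median log2 ratio of the 6 was 0.77 (0.79 in the 3' part and 0.69 with the trend removed). Known E-box targets had a median of -0.11, with 5 of 12 higher, and Noct was the one member 2-fold apart (1196 and 495 normalised reads, 2.42-fold lower). Noct, a deadenylase-related NADPH phosphatase, has many multi-mapped reads (5.04 times its unique ones) and is uncertain; it was 1.97-fold lower in the 3' part. All 6 ROR-element targets are core clock genes, so that list mostly repeats values given above.

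Promoters of an E-box pair that differed in direction are printed below with that of Npas2, because both of the pair hold the same motif. They are the 250 bases before the start of each gene, 5' to 3' on the gene's strand, from RefSeq (GRCm38.p6), with E-boxes (CACGTG) in capitals. Per1 lies at chr11:69098699-69098948 (plus strand, 1 of 2 starts), Cry1 at chr10:85185055-85185304 (minus strand) and Npas2 at chr1:39194022-39194271 (plus strand).
Per1: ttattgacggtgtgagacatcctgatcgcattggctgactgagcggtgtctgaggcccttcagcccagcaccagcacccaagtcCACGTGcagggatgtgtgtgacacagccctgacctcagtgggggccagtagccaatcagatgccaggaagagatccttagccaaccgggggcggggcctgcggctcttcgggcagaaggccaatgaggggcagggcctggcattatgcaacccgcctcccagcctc
Cry1: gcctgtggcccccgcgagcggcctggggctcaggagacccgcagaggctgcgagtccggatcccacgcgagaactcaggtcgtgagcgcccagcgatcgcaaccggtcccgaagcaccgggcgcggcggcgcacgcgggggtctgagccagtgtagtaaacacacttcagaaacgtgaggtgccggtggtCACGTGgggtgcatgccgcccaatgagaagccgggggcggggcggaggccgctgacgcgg
Npas2: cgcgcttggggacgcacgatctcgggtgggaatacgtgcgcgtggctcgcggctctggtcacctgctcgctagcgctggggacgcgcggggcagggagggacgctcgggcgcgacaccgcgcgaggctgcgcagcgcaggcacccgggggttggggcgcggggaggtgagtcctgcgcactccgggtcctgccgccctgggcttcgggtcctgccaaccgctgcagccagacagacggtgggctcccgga
The E-box begins 166 bases before the start in Per1, which was 1.61-fold lower, and 60 bases before it in Cry1, which was 1.62-fold higher. The pair was picked for its directions. Tef, another listed E-box target, holds E-boxes 127 and 138 bases before its starts and was nearly level (log2 0.11). The Npas2 window, of the gene 16.3-fold higher, holds none of the motifs searched. These were the E-box, the ROR element (AAAGGTCA, ATAGGTCA, TAAGGTCA or TTAGGTCA), the D-box (TTACGTAA or TTATGTAA), the cyclic AMP element (TGACGTCA) and the heat shock element, each on both strands.

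Over the genes with a promoter in the table, an E-box stood in 11.2% of 98 genes 2-fold higher and 8.25% of 97 genes 2-fold lower, against 10.5% of 7333 genes tested and 6.86% of all 27025 promoters. The ROR element stood in 2.04% and 6.19%, against 2.65% of genes tested, and in 0 of the 5 listed ROR-element targets with a promoter. The cyclic AMP element stood in 5.10% and 3.09%, against 3.01%. The D-box stood in 0 and 3.09%, against 0.845%. These shares rest on few genes, and a match is a description of letters, not of binding.

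Among metabolic genes, those of lipogenesis were mostly higher at CT28. Of 15 measured genes, 13 were higher at CT28, against 53.7% of all genes. Acacb and Fasn were higher by 2-fold or more (1.46% of all genes), and 1 gene, Lpin1, was 2-fold lower (1.44%). The median log2 ratio was 0.49, 0.60 in the 3' part and 0.46 with the trend removed. Acacb, the acetyl-CoA carboxylase that makes malonyl-CoA at mitochondria, had 904, 2998, 2617 and 3651 normalised reads (3.32-fold, 3.08 to 3.58). CT22 was the low library.

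Fasn, fatty acid synthase, had 12200, 25770, 24360 and 27190 normalised reads (2.11-fold, 2.07 to 2.16), but 1.57-fold with the trend removed, which takes it under the limit. Scd1, the stearoyl-CoA desaturase, had 56130 and 112200, just under 2-fold. Acly (log2 0.95), Gpam (0.80) and Mlxipl (0.76), which encode ATP citrate lyase, a glycerol-phosphate acyltransferase and the carbohydrate-responsive factor ChREBP, were higher by less. Lpin1, a phosphatidate phosphatase that glucocorticoids and fasting induce, had 4516 and 1854 (2.44-fold lower, 2.31 to 2.57), with 2124 intron reads at CT22 and 222 at CT28. Cholesterol synthesis genes had 0 of 23 measured members 2-fold apart and a median of 0.05.

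Glucocorticoid-induced genes were mostly lower at CT28: 14 of 16 measured, against 46.3% of all genes, with 2 past 2-fold (Lpin1 and Mt1; 1.44% of all genes) and a median log2 ratio of -0.44 (-0.37 in the 3' part, -0.47 with the trend removed). Tsc22d3, the glucocorticoid-induced leucine zipper, had 1595 and 1047 normalised reads (1.52-fold lower, 1.41 to 1.65), and the co-chaperone gene Fkbp5 had 679 and 465. The list also holds Per1. Mt1, a metallothionein that binds zinc, had 14770 and 7182 (2.06-fold lower, 2.00 to 2.12), but was under the limit in the 3' part (1.97-fold) and with the trend removed (1.82-fold), while Mt2 had 1218 and 1137 (1.07-fold lower, 0.987 to 1.16). Tat, an amino acid catabolic enzyme of the list, had 30060 and 30250.

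Genes of bile acid synthesis and transport had a median of -0.12, with 2 of 17 measured members 2-fold higher and 1 lower. Nr0b2 encodes SHP, a repressor that bile acids induce. It had 289, 1075, 1122 and 672 normalised reads from CT22 to CT40 (3.72-fold higher at CT28, 3.26 to 4.25), and 21, 181, 166 and 51 intron reads. Cyp7a1, whose enzyme limits the rate of the classical bile acid pathway and which SHP represses, had 6998, 3415, 972 and 4162 (2.05-fold lower, 1.97 to 2.14; 1.59-fold with the trend removed). Cyp39a1, an oxysterol hydroxylase, had 348 and 755 (2.17-fold higher; 1.82-fold in the 3' part). Cyp8b1, the hydroxylase of the cholic acid branch, was lower by less than 2-fold (log2 -0.60).

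Of the PPAR alpha fasting genes, 1 of 25, Acot1, differed by 2-fold over the whole transcript. With the trend removed 2 did, as Cyp4a14 (9541 and 17530 normalised reads) went from 1.84-fold to 2.07-fold higher. Acot1, a cytosolic acyl-CoA thioesterase, had 149, 562, 1086 and 333 normalised reads (3.77-fold higher at CT28, 3.13 to 4.55). The list's median was 0.24. Irs2, an insulin receptor adaptor that insulin represses, had 161 and 342 (2.13-fold, 1.75 to 2.59; 1.75-fold with the trend removed, under the limit), and it reached 1179 at CT34. With Igfbp1 it made up the members of the insulin and FoxO list that were 2-fold apart, in opposite directions; the other 12 measured members were within 2-fold. Nuclear receptors outside the clock had 3 of 24 members 2-fold higher (1.46% of all genes) and 0 lower. The 3 included Nr0b2 and Ppard, a fatty acid receptor (263 and 926, 3.52-fold).

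Male-biased liver genes were lower as a list. Of 20 measured, 17 were lower at CT28 (46.3% of all genes) and 11 by 2-fold or more (1.44% of all genes), with a median log2 ratio of -1.17. With multi-mapped reads the total was over 1.5 times the unique reads in 7 of the 20, among them 5 of the 11 that were 2-fold lower. Without the GC and length trend, 5 were 2-fold lower and the median was -0.56. Slco1a1, an organic anion carrier, had 2853, 832, 1031 and 2917 normalised reads from CT22 to CT40 (3.43-fold lower at CT28, 3.17 to 3.71). C8a, given above, is also on the list, and Ugt2b1, a glucuronosyltransferase, had 8196 and 3582 (2.29-fold lower; 1.66-fold with the trend removed). Cyp7b1 (1882 and 1855) and Cyp2d9 (18070 and 18190) were nearly level.

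Several members cannot be measured apart from near-identical copies. Selenbp2 (3.22-fold lower), Cyp4a12a (3.46-fold) and Serpina1e (2.59-fold) were among the 5. The major urinary protein (Mup) cluster was examined as a family after its values had been seen. It had 11 of 20 genes 2-fold lower (1.44% of all genes) and a median log2 ratio of -1.07. Without the trend 1 was 2-fold lower and the median was -0.38, and with multi-mapped reads included the median was -0.25. Multi-mapped reads were over that limit in 17 of the 20. The size of the Mup difference therefore depends on which reads are counted.

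Female-biased genes had 3 of 17 measured members 2-fold higher (1.46% of all genes), 1 lower and a median of 0.42 (0.56 with the trend removed). Besides Sult2a1 they included Cyp17a1, a hydroxylase and lyase of steroid synthesis, with 1071 and 3589 normalised reads (3.35-fold, 3.13 to 3.59). The lower member was Abcd2, a peroxisomal fatty acid transporter (835 and 381, 2.19-fold; 1.92-fold with the trend removed). Growth hormone signalling genes, which set this sex bias, had 1 of 14 members 2-fold apart: Socs3, a feedback inhibitor of cytokine receptors, with 248 and 108 (2.29-fold lower). Cish, another feedback inhibitor, had 1216 and 654 (1.86-fold lower, 2.01-fold with the trend removed). Socs2 had 393 and 674 (1.71-fold higher, 2.02-fold with the trend removed), while its intron reads went from 64 to 13. With the trend removed, 1 member of the list was thus 2-fold higher and 2 were 2-fold lower.

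**Figure D3:**
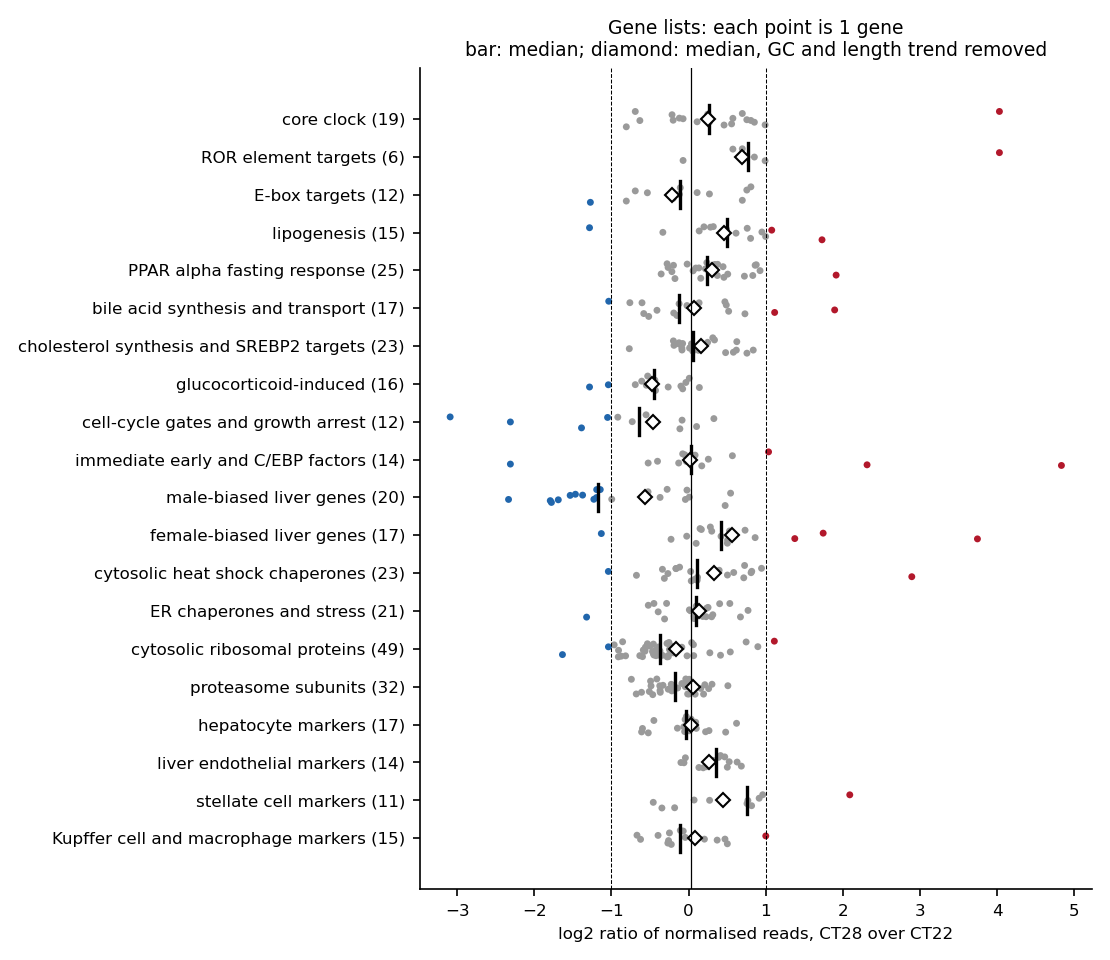
The log2 ratio of normalised reads, CT28 over CT22, for the measured genes of 20 lists (number measured in parentheses), with each list's median as a bar and its median with the GC and length trend removed as a diamond. The solid line marks the median of all genes (0.04) and the dashed lines 2-fold; male-biased genes have a median of -1.17 and move to -0.56, while lipogenesis genes stay near 0.49.

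Heat shock chaperones, which follow body temperature through HSF1, had 1 of 23 measured members 2-fold higher and 1 lower. Their median was 0.11, and 0.33 with the trend removed. At the 1.5-fold limit, 7 were higher (9.72% of all genes) and 2 lower (7.41%). Hsp90ab1, a cytosolic HSP90, had 14950 and 28800 normalised reads (1.93-fold higher, 1.89 to 1.97), and Bag3 had 1035 and 1825 (1.76-fold, 1.63 to 1.91). Hspa8 went the other way, with a log2 ratio of -0.27. Hspb1 had 23.9 and 177 (7.43-fold, 4.80 to 12.0), and Dnaja1 was 2.06-fold lower (1.66-fold with the trend removed); both carry many multi-mapped reads and are uncertain. Of 21 endoplasmic reticulum chaperone and stress genes, 1 was 2-fold apart: Dnajb9, a co-chaperone of BiP, at 1851 and 740 (2.50-fold lower, 1.73-fold with the trend removed).

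Ribosomal protein genes had 40 of 49 measured members lower, against 46.3% of all genes. Their median was -0.37, which was -0.16 with the trend removed, and 30 of the 49 carry many multi-mapped reads. At 2-fold, 1 was higher (1.46% of all genes) and 2 were lower (1.44%), the 2 lower ones with many multi-mapped reads. The higher one, Rpl38, was not so marked and was 2.16-fold higher (2.28-fold in the 3' part, 2.44-fold with the trend removed). With the trend removed, 3 members were 2-fold higher and 1 was 2-fold lower. Proteasome subunits had a median of -0.17, and 0.06 with the trend removed. SR and hnRNP splicing regulators had -0.25 and -0.05. Oxidative phosphorylation subunits had 1 of 43 members 2-fold apart, Cox6c, 2.15-fold lower over the whole transcript. The ratio in its 3' part went the other way (1.26, on 62 and 79 reads), and 38.6% of its length overlaps Vps13b.

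Acute phase genes had 1 of 21 members 2-fold apart, Apcs, serum amyloid P (1719 and 678, 2.53-fold lower; 1.76-fold with the trend removed). C3, the central complement protein, had 112100 and 268900 normalised reads (2.40-fold higher, 2.38 to 2.42) but was 1.98-fold higher both in the 3' part and with the trend removed. Pfkfb3, which makes the allosteric activator of glycolysis, had 434 and 158 (2.74-fold lower, 2.28 to 3.31), and Ppp1r3c, a glycogen-targeting phosphatase subunit, had 686 and 1493 (2.17-fold higher). Tfrc, the transferrin receptor, had 613 and 273 (2.25-fold lower; 1.79-fold with the trend removed). Id1, a target of BMP signalling, had 84.0 and 205 (2.44-fold higher).

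Other liver functions held few genes past the limit. Of the cytochrome P450 families measured, 0 of 27 genes were 2-fold higher and 1 was lower, Cyp3a11, the main drug-metabolising enzyme of its family (77030 and 37220 normalised reads, 2.07-fold lower; 1.52-fold with the trend removed). Of 28 phase II conjugation genes, 1 was 2-fold higher (Sult2a1) and 3 were 2-fold lower (Sult1b1, Ugt2b1 and Gstp1, the last with many multi-mapped reads). With the trend removed 1 was 2-fold lower, since Sult1b1 went from 2.20-fold to 1.40-fold and Ugt2b1 to 1.66-fold. Of 23 apolipoprotein and lipase genes, 0 were 2-fold higher and 2 were 2-fold lower, Lpl and Apoc4. Apoc4, a minor apolipoprotein, had 58230 and 26470 (2.20-fold lower, 2.17 to 2.23, and 1.935-fold with the trend removed). Urea cycle and amino acid genes had 0 of 24 members 2-fold apart, and NRF2 targets 0 of 12. Clock output enzymes had 2 of 9 members 2-fold lower (1.44% of all genes), Noct and Upp2. Upp2, a uridine phosphorylase, had 13480, 5145, 1855 and 6996 (2.62-fold lower at CT28, 2.54 to 2.71).

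Myh11 and Acta2, both smooth muscle genes, were among the 15 with the widest ratio upward. Myh11, smooth muscle myosin, had 36.3, 218, 76.8 and 75.7 normalised reads from CT22 to CT40 (5.996-fold, 4.18 to 8.83), and Acta2, smooth muscle actin, had 88.1, 375, 154 and 121 (4.26-fold, 3.36 to 5.45). Other smooth muscle genes were then examined, chosen after these values had been seen. Tagln had 148, 292, 166 and 143, Myl9 had 71.5, 151, 64.5 and 61.4, and Cnn1 had 8.29, 46.3, 9.21 and 2.88. Actg2 had 14.5 and 43.3 at CT22 and CT28, and Lmod1 had 6.22 and 26.6. Myl9, Cnn1, Actg2 and Lmod1 were under the read minimum and so are not among the genes tested. CT28 was the highest of the 4 libraries for each of these 7 genes. Smtn, another smooth muscle gene, had 160, 222, 226 and 195, without such a peak. Fewer cells of a type and less RNA per cell cannot be told apart in such bulk samples.

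Markers of other liver cells were read beside this. Of 11 measured stellate cell markers, 1 was 2-fold higher (Acta2) and 0 lower, with a median of 0.76 (0.49 in the 3' part, 0.45 with the trend removed). Their summed level was 7681 normalised reads at CT22 and 9277 at CT28, and 10580 and 8535 later. Defining stellate genes went both ways: Reln (log2 0.76) and Des (0.82) were higher, Dcn (-0.46) was lower and Lrat (0.07) nearly level.

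Bile duct markers had summed levels of 1205, 2072, 1892 and 1869 normalised reads in time order, and 3 of 9 passed the read minimum. All 3 were higher (53.7% of all genes), with a median log2 ratio of 0.98 (0.81 with the trend removed). Among these, Sox9 had 171 and 339, and Spp1 457 and 509. Under the minimum, Muc1 had 23.9 and 111, Krt19 23.9 and 71.9, and Tspan8 2.07 and 13.8 (interval 1.53 to 60.3). Krt7 (13.5 and 24.6), Epcam (22.8 and 34.5) and Cftr (2.07 and 4.92) had intervals that span equality. Endothelial markers had 0 of 14 members 2-fold apart, a median of 0.35 and summed levels of 7144 and 8830, and Kupffer cell markers had 1 of 15 (Marco), a median of -0.11 and sums of 8689 and 7911. Red cell markers summed to 6951 at CT22 and 4848 at CT28. Of these markers, 4 of 4 measured members were lower (46.3% of all genes), 3 of them with shared reads. Lymphocyte, neutrophil, and adipocyte and muscle markers had 0 measured members, with sums of 207, 92.3 and 67.4 at CT22 and 217, 101 and 60.1 at CT28. The part of cell composition in the differences above was not tested.

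The calls were read again in 3 ways. Of 264 genes 2-fold apart with at least 30 reads in the 3' part in either library, 224 were also 2-fold apart there in the same direction (114 of 132 higher, 110 of 132 lower). Exons were assigned whole, so in genes of 1 exon, such as Cebpb (132 and 691 unscaled reads in each), the 3' part is the whole transcript. Agreement was fixed in advance for such genes, and nearly so where the last exon holds most of the reads. These genes were not counted apart. With the GC and length trend removed, 76 of the 135 higher and 65 of the 133 lower genes remained 2-fold apart. Both held for 68 and 58 genes. Genes higher at CT28 had a median GC content of 54.3% and a median transcript length of 4012 bases. Genes lower had 44.8% and 2159 bases, and all genes 50.6% and 3042 bases. Multi-mapped reads were over 1.5 times the unique ones for 5 higher and 31 lower genes, and 8 and 19 shared over 10% of their length with another gene.

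Intron reads, which come mostly from RNA not yet spliced, were set beside exon reads. Genes with a mean of at least 50 intron reads over CT22 and CT28 were taken, a minimum that a gene can pass through 1 library alone. Among them, 38 of 87 lower genes were also 2-fold lower in introns, and 82 were lower by any amount. Of 99 higher genes, 20 were also 2-fold higher in introns and 80 were higher by any amount. The median log2 intron ratio was -0.88 for lower genes (exons -1.20) and 0.39 for higher genes (exons 1.14). Over 7420 genes the median was -0.27, so intron ratios as a whole sat lower at CT28; for every 100 gene reads there were 25.3 intron reads at CT22 and 20.7 at CT28. The counts for lower and higher genes are thus not on an equal footing, and their difference was not tested. Shares of all 7420 genes past the same limits in introns were not counted, so the counts are not read as particular to these genes.

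**Figure D4:**
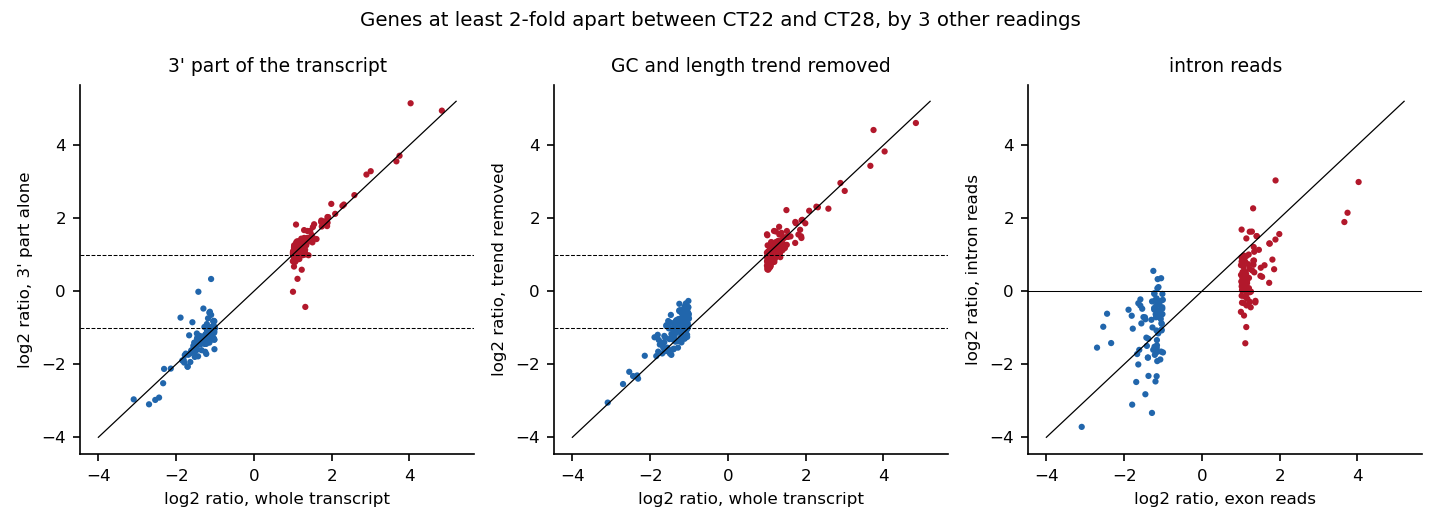
The log2 ratio of CT28 over CT22 for genes 2-fold higher (red) or lower (blue) over the whole transcript (x axis), against the ratio in the 3' part alone, the ratio with the GC and length trend removed, and the ratio of intron reads (y axes). Most points follow the diagonal in the first panel. Genes of 1 exon do so by construction, apart from the scaling, since their 3' part is the whole transcript. Of 264 genes with at least 30 reads in the 3' part in either library, 224 stay past the dashed 2-fold lines. The intron panel shows genes with a mean of at least 50 intron reads over the 4 libraries, and red points lie mostly under the diagonal. For higher genes with that mean over CT22 and CT28, the median was 0.39 in introns and 1.14 in exons.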

How the data were processed

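The authors deposited, for each library, a lower and an upper value per transcript, exon and intron, and junction counts; the feature values carry no stated unit, but behave like RPKM. Lower transcript values times feature length were whole multiples of 1 step per library for 99.8 to 99.9% of values within 0.05 read, and were read as uniquely mapped reads; this reading is inferred. Per the submitters' processing notes, the genome was mm9; junctions came from the aligner RUM, per the file headers, and the counting rule is not stated in the labels used here. Transcripts lacking a symbol (35990 of 115699) were not used. Each gene took its transcript with the highest mean. Reads were scaled by TMM (edgeR 4.0.16, R 4.3.3), counts under 3 set to 3, and ratios given exact conditional 95% intervals (scipy 1.17.1). With 1 library per time there is no test, and neither compared library can be left out. An exon belonged to the 5' or 3' part by its centre. The trend was cubic in GC content and log length. Named genes were Clock, the core clock, the 15 widest ratios per direction whose 3' part was also 2-fold apart and whose multi-mapped total was at most 1.5 times unique, and up to 4 members per list; others were chosen after their values were seen. A few genes that the rule names are left out of the text. Members and lists were chosen with earlier results of these data known. The ratio and interval steps were tested on simulated data. Alternatives covered scaling, filters, multi-mapped reads, transcript choice, transcript part and the trend. Python 3.11.15, numpy 2.4.6, pandas 2.3.3, matplotlib 3.10.9 and DESeq2 1.42.0 (size factors only) were used.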

Additional observations from a re-analysis of the deposited data

How the results depend on the processing

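No paired analysis was possible because each time has 1 library. With 135 genes 2-fold higher and 133 lower as reported, the number higher was 87 with total-read scaling, and 238 in the 5' part alone; the number lower was 72 with the GC and length trend removed. A minimum mean of 10 reads gave 402 and 415, one of 500 reads gave 69 and 54, a limit of 1.5-fold gave 896 and 683, and a whole counting interval past 2-fold gave 53 and 72. These last changes follow from testing more or fewer genes or from the limit itself; for the scaling, the 5' part and the trend the cause was not tested. Median-of-ratios scaling (118 and 146), upper-quartile scaling (130 and 137), TMM over the compared libraries alone (130 and 138), multi-mapped reads (143 and 122), the longest transcript (135 and 127), the 3' part (161 and 176), junction reads (169 and 162) and deposited values with a pseudocount of 0.1 (122 and 123) gave counts within 1.5 times. Similar counts need not be the same genes: of the 135 and 133, junction reads (over 6429 genes with enough of them) kept 60 and 58, the 5' part 88 and 77, the trend removal 76 and 65, the 3' part 109 and 99, and multi-mapped reads 127 and 108. Of the genes past 2-fold, 58 were so in introns, and 30 with at least 200 intron reads. The share of all genes past that limit in introns was not counted. Over the named genes that are reported and their alternatives, 1574 values stayed within the counting interval's spread, 397 moved, and 0 of those 2-fold apart changed side where the alternative kept at least 100 reads. Smaller ratios did: 6 genes whose interval lies off equality changed side under some alternative (Cpox, Eno1, Per2, Rora, Srsf5 and Tef). Over list medians, 464 stayed within 0.2 log2 and 24 moved; 0 of those at least 0.2 from 0 changed sign, but 17 of 38 lists, all with a median nearer to 0, did so under some alternative, 8 with total-read scaling and 7 with the trend removed. That 0.2 and the minimum of 30 reads per part were set after the files were seen. Depth limits genes near the minimum of 100 reads most: Muc1, under it, had an interval of 2.96 to 7.66 around 4.67.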

Other observations

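Outside the lists, 2-fold differences between CT22 and CT28 also touched signalling, matrix and interferon genes; those named here were chosen after their values were seen. Bmp2, a secreted BMP ligand, had 192, 70.9, 141 and 75.7 normalised reads from CT22 to CT40 (2.71-fold lower at CT28, interval 2.05 to 3.60), while Hes1, a Notch-induced repressor, had 80.9, 231, 248 and 158 (2.86-fold higher, 2.21 to 3.75). Notch2, a receptor of that pathway, had 720 and 1518 (2.11-fold higher; 1.65-fold with the GC and length trend removed). Ndrg1, a stress- and growth-regulated gene, had 281 and 858 (3.05-fold higher). Il1r1, the receptor of interleukin 1, had 1704 and 639 (2.67-fold lower, 2.43 to 2.93), with 589 and 675 later, so the CT22 library alone was high. Rcan1, an inhibitor of calcineurin, had 1320, 571, 357 and 269 and was lower in each later library (2.31-fold at CT28, 1.86-fold in the 3' part).

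Matrix and adhesion genes 2-fold higher included Serpinh1, the collagen chaperone (104 and 241 normalised reads, 2.33-fold), P4ha2, a collagen prolyl hydroxylase (80.9 and 190, 2.35-fold), Igfbp5 (161 and 396, 2.46-fold) and the collagen chain gene Col6a3 (77.8 and 165, 2.13-fold; 1.65-fold with the trend removed). Among interferon-induced genes, Isg15 had 190 and 85.7 (2.21-fold lower; 1.89-fold with the trend removed) and Rsad2 had 281 and 124 (2.26-fold lower), while Irgm2 had 1018 and 2040 (2.00-fold higher, 1.86 to 2.16). Crat, carnitine acetyltransferase, had 846 and 2132 (2.52-fold higher), and Inmt, an indolethylamine methyltransferase, had 14220 and 6099 (2.33-fold lower, 2.26 to 2.40). Neat1, a long noncoding RNA of paraspeckles, had 1021 and 2213 (2.17-fold higher).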
